A study of Mus musculus with 10 samples.

Results

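Retinoids, the vitamin A derivatives, can reach the heart as retinol, among other forms, and 9 genes of their transport and signalling are described here: *Rbp4*, *Rbp7*, *Stra6*, *Aldh1a1*, *Aldh1a2*, *Crabp2*, *Rara*, *Rarb* and *Rxra*. They were found by gene symbol among 57185 genes with counts in a table of RNA sequencing from mouse ventricle. The set was chosen by the measured difference in *Rbp4* counts between the genotypes, with genes of related function around it, so the genotype values of all 9 genes are given as a description, without a test. The study asked whether deleting *Rrad*, which encodes RAD, a small GTPase that restrains the L-type calcium channel, alters established dilated cardiomyopathy in mice that lack the muscle LIM protein MLP, encoded by *Csrp3*.

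Both groups of 5 mice were MLPKO and carried loxP-flanked *Rrad* alleles (RAD fl/fl). The MLPKO mice had no Cre, and the MLPKO-cRADKO mice also carried MYH6-MerCreMer, a tamoxifen-dependent Cre driven by a cardiomyocyte promoter. All 10 mice received 1 intraperitoneal injection of tamoxifen at 100 mg/kg when 10 weeks old, and hearts were taken 1 month later, at an age the labels give as 16 weeks. All were male by the legend of the study's RNA sequencing figure. Since only the MLPKO-cRADKO mice carried Cre, loss of RAD and presence of the active Cre cannot be told apart, and no mouse with MLP was measured here. The RNA was that of apical ventricle, a mixture of cell types, in which fewer cells of a type and less RNA per cell cannot be told apart.

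Library totals ran from 33457406 to 49965101 counts, and values are CPM, the counts of a gene per 1000000 counts in the genes tested, scaled by the TMM method of edgeR. *Rrad* itself was at 262, 268, 140, 163 and 282 CPM in MLPKO mice 1 to 5 and at 196, 135, 202, 146 and 176 CPM in MLPKO-cRADKO mice 1 to 5, a log2 fold change of -0.38 ± 0.20 (SE, edgeR quasi-likelihood adjusted p = 0.29). The study reported from western blots that RAD protein was lost in MLPKO-cRADKO hearts after tamoxifen. The genotypes overlapped for the RNA of *Rrad*, whose count is over all its exons, so within these counts the labels alone carry the genotype. *Csrp3* was counted in every mouse, at 1010 to 3260 CPM in MLPKO and 691 to 1180 CPM in MLPKO-cRADKO, and the genotypes overlapped. Its count is also over all its exons, so these values do not show whether an intact *Csrp3* RNA was made. Its log2 fold change was -1.08 ± 0.29 (SE, edgeR adjusted p = 0.0667, DESeq2 adjusted p = 0.0362), with MLPKO mouse 2 the highest. MLPKO mouse 2 stood apart: it held the highest or the lowest MLPKO value for 57.6% of the genes tested, against 29.0% to 43.5% for the other MLPKO mice. MLPKO-cRADKO mouse 3 stood apart in adipocyte markers, described with *Rbp4* below.

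As background, retinol circulates bound to retinol-binding protein 4, the product of *Rbp4*, which liver and adipose tissue secrete and which forms a complex with transthyretin. Inside cells retinol is oxidised to retinal and then, by the ALDH1A enzymes, to retinoic acid, which binds retinoic acid receptors (RAR) paired with retinoid X receptors (RXR) on DNA. Retinoic acid signalling shapes the developing heart and its epicardium, and enzymes of the CYP26 family degrade retinoic acid.

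RAR and RXR pairs bind direct repeats of a short core motif, and the sequence before the start sites is shown because it is where such repeats lie in well-known retinoic acid response genes. The motif was searched as AGGTCA or AGTTCA on both strands in the 250 bases before each gene's canonical start (GRCm39). It was present in 2 of the 9 genes, *Aldh1a1* and *Rara*, beside 20.2% of the 13416 tested genes with such a window. A direct repeat of it spaced by 5 bases was found in none of the 9 and in 1 of the 13416 tested genes (0.00745%), the platelet chemokine gene *Ppbp*. Among the 77 retinoid genes listed here it occurred in *Cyp26a1*, a retinoic acid degrading enzyme, where it ends at the base before the start. The *Cyp26a1* stretch (chr19:37686219-37686240, plus strand), the *Aldh1a1* window (chr19:20576925-20577174, plus strand, within the gene's span but in no annotated exon) and the part of the *Rbp4* window outside annotated exons (chr19:38113321-38113402, minus strand) read as follows, with the motif in capitals on whichever strand it lies.
Cyp26a1: aaagaTGAACTttgggTGAACT
Aldh1a1: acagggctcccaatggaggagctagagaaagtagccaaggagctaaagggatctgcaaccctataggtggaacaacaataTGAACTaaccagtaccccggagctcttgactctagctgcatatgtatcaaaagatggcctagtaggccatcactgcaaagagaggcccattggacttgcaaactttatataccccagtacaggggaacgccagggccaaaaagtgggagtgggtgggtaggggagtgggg
Rbp4: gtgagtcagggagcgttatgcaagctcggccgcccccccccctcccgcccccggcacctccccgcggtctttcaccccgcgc
The *Rbp4* stretch holds no copy of the motif. A match or its absence in these windows is a description of the letters and not of binding. Only these spellings and windows were searched, so repeats spelled otherwise or lying elsewhere would be missed. That holds also for *Rarb*, which has 21 annotated transcripts and was searched before its canonical start alone. The search therefore does not show that *Rarb* lacks such a repeat.

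*Rbp4* (chromosome 19, 38105066 to 38113754, minus strand) was lower in every MLPKO-cRADKO heart than in any MLPKO heart. It was at 0.647, 9.32, 1.58, 0.96 and 1.41 CPM in MLPKO mice 1 to 5, from 28, 294, 80, 36 and 64 counts. In MLPKO-cRADKO mice 1 to 5 it was at 0.359, 0.0871, 0.164, 0.0445 and 0.317 CPM, from 12, 4, 6, 2 and 14 counts. The genotypes did not overlap, and the lowest MLPKO mouse had 1.80 times the level of the highest MLPKO-cRADKO mouse. The mean was 2.78 ± 3.67 CPM (SD, n = 5) in MLPKO and 0.194 ± 0.139 CPM (SD, n = 5) in MLPKO-cRADKO, a log2 fold change of -3.84 ± 0.84 (SE).

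The size of that difference rests largely on MLPKO mouse 2, in which *Rbp4* was 7.86 times the median of the other MLPKO mice. Without mouse 2 the MLPKO mean was 1.15 ± 0.425 CPM (SD, n = 4) and the log2 fold change was -2.59 ± 0.49 (SE). Leaving out each of the 10 mice in turn moved it between -4.15 and -2.59. Its sign could not change in these fits, because the genotypes did not overlap. *Rbp4* was also near the limit of detection in MLPKO-cRADKO: 3 counts equal 0.0592 to 0.0951 CPM, depending on the library, and MLPKO-cRADKO mouse 4 lay under that. All 10 *Rbp4* counts were even numbers, as were 73.7% to 80.3% of all counts from 1 to 20, so a fragment may have added 2 counts and the number of molecules seen may be smaller than the counts. Of the exon bases of *Rbp4*, 222 of 1427 lie opposite exons of *Ffar4*, a fatty acid receptor gene that had 0 counts in all 10 mice.

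**Figure D1:**
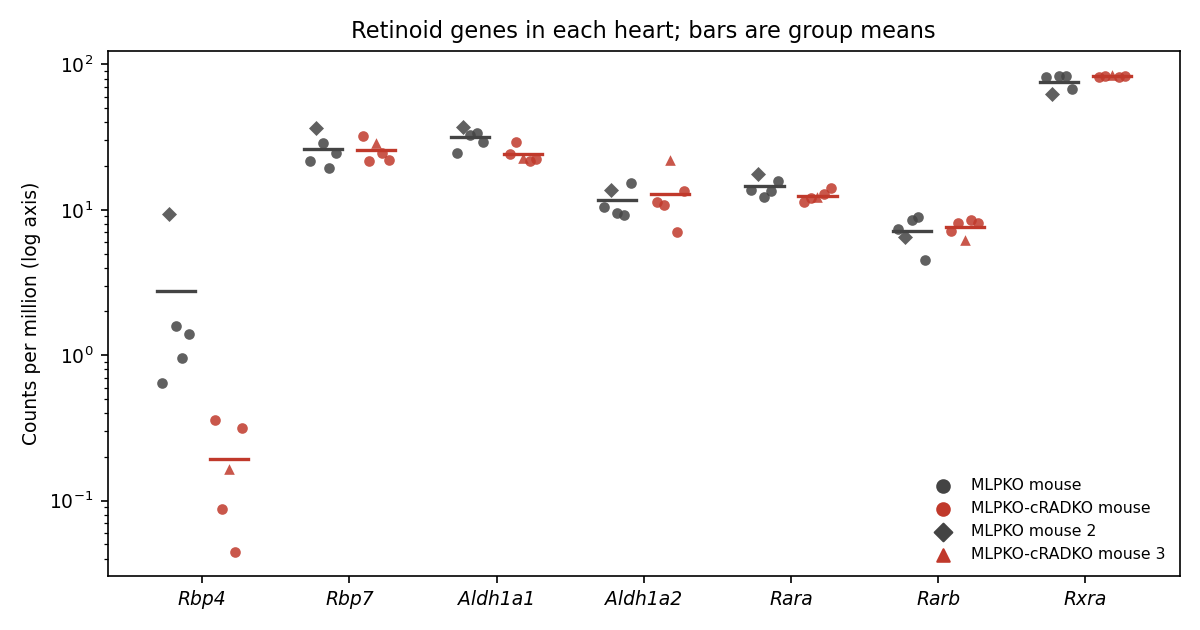
CPM (log axis) of the 7 retinoid genes that passed the filter on low counts, in each of 5 MLPKO mice (grey) and 5 MLPKO-cRADKO mice (red), with bars at the group means, a diamond for MLPKO mouse 2 and a triangle for MLPKO-cRADKO mouse 3. *Rbp4* is the gene whose genotypes do not overlap, with MLPKO mouse 2 at 9.32 CPM, while *Rbp7*, *Aldh1a1*, *Aldh1a2*, *Rara*, *Rarb* and *Rxra* overlap.

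Of the 9 genes, 7 had more than 10 counts in at least 6 of the 10 mice and entered the fit over 13453 genes, and *Stra6* and *Crabp2* did not. *Rbp4* passed that filter through all 5 MLPKO mice and 2 MLPKO-cRADKO mice. At an adjusted p under 0.05, edgeR called 369 genes (2.74%), 242 of them lower in MLPKO-cRADKO (1.80%) and 127 higher (0.944%). The genotypes did not overlap for 890 genes (6.62%), 535 of them lower (3.98%) and 355 higher (2.64%). Of the 7 genes, 1 was called and 1 did not overlap, in both cases *Rbp4*, for which the set was put together, so nothing is read from these counts. That call was lost in 6 of the 10 fits that left out a mouse, namely those without MLPKO mouse 5 and those without each single MLPKO-cRADKO mouse, and also with limma-voom and without MLPKO mouse 2 and MLPKO-cRADKO mouse 3 together. The rest of the 7 had log2 fold changes from -0.39 for *Aldh1a1* to 0.15 for *Aldh1a2*.

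Among the retinol carriers and receptors, *Rbp7* was the gene with most RNA per length. *Rbp7* (chromosome 4, 149534116 to 149539437, minus strand) encodes a cellular retinol-binding protein that is known from endothelium and adipose tissue. It was at 21.7, 36.8, 28.9, 19.4 and 24.6 CPM in MLPKO mice 1 to 5 and at 32.1, 21.6, 29.0, 24.5 and 22.1 CPM in MLPKO-cRADKO mice 1 to 5. The genotypes overlapped throughout, with a log2 fold change of -0.02 ± 0.17 (SE), and MLPKO mouse 2 was again the highest. Without that mouse the log2 fold change was 0.13.

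*Stra6* (chromosome 9, 57970967 to 58063543, plus strand) encodes the membrane receptor that takes up retinol from RBP4. It had 2, 6, 23, 14 and 0 counts in MLPKO mice 1 to 5 and 12, 6, 6, 10 and 24 counts in MLPKO-cRADKO mice 1 to 5. These counts, at most 0.543 CPM, overlapped and were too few for the fit. *Crabp2* (chromosome 3, 87855973 to 87860683, plus strand), which carries retinoic acid to the nucleus, had 2 counts in MLPKO mouse 2, 4 and 2 counts in MLPKO-cRADKO mice 3 and 5, and 0 in the other mice. A difference in *Crabp2* was not detectable at this depth.

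Of the retinoic acid synthesising enzymes, *Aldh1a1* had the lower mean in MLPKO-cRADKO and *Aldh1a2* the higher. *Aldh1a1* (chromosome 19, 20469539 to 20622825, plus strand) was at 24.7, 37.2, 32.7, 33.5 and 29.3 CPM in MLPKO mice 1 to 5. In MLPKO-cRADKO mice 1 to 5 it was at 24.2, 29.5, 22.7, 21.5 and 22.3 CPM. The means were 31.5 ± 4.73 and 24.0 ± 3.21 CPM (SD, n = 5 each), with a log2 fold change of -0.39 ± 0.12 (SE). The groups overlapped through MLPKO-cRADKO mouse 2, which lay above MLPKO mice 1 and 5. Without MLPKO mouse 2 the log2 fold change was -0.32.

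*Aldh1a2* (chromosome 9, 71122630 to 71203527, plus strand), the retinaldehyde dehydrogenase of the embryonic heart and epicardium, was at 10.4, 13.6, 9.47, 9.25 and 15.4 CPM in MLPKO. It was at 11.4, 10.8, 21.9, 7.06 and 13.4 CPM in MLPKO-cRADKO, where mouse 3 was highest and mouse 4 lowest. The MLPKO-cRADKO mice thus enclosed the MLPKO range, with a log2 fold change of 0.15 ± 0.26 (SE). Without MLPKO-cRADKO mouse 3 it was -0.12, so its sign was set by that mouse.

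For each of the nuclear receptors the genotypes overlapped. *Rara* (chromosome 11, 98818612 to 98865768, plus strand) encodes RAR alpha and was at 13.7, 17.6, 12.3, 13.4 and 15.8 CPM in MLPKO and at 11.4, 12.0, 12.3, 12.9 and 14.1 CPM in MLPKO-cRADKO. Its log2 fold change was -0.21 ± 0.10 (SE), and the groups overlapped. *Rarb* (chromosome 14, 5650540 to 6041094, plus strand), encoding RAR beta and itself a retinoic acid response gene, was at 7.33, 6.46, 8.49, 8.88 and 4.52 CPM in MLPKO and at 7.12, 8.06, 6.20, 8.57 and 8.12 CPM in MLPKO-cRADKO. Its log2 fold change was 0.09 ± 0.17 (SE). Of the exon bases of *Rarb*, 2612 of 8366 lie opposite exons of *Top2b*, which had 2926 to 4285 counts a mouse, and because the strand setting of the counting is not given in the sources used here, the *Rarb* values are uncertain.

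*Rxra* (chromosome 2, 27566452 to 27653330, plus strand) encodes RXR alpha, the partner of RARs and of several other nuclear receptors. It was at 81.3, 62.9, 83.1, 83.9 and 67.8 CPM in MLPKO and at 81.4, 82.9, 85.1, 82.4 and 83.1 CPM in MLPKO-cRADKO. The MLPKO-cRADKO mice lay within 1.05-fold of each other, while MLPKO mice 2 and 5 lay below the rest. The log2 fold change was 0.13 ± 0.08 (SE) with all mice and 0.07 without MLPKO mouse 2.

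Per kilobase of the canonical transcript, the order of levels in MLPKO was *Rbp7* (42.4 ± 11.1 CPM per kb, SD, n = 5), *Rxra* (13.8 ± 1.78), *Aldh1a1* (5.08 ± 0.763), *Rara* (4.37 ± 0.635), *Aldh1a2* (4.29 ± 1.01), *Rbp4* (2.97 ± 3.92), *Rarb* (2.10 ± 0.515), *Stra6* (0.0399 ± 0.0371) and *Crabp2* (0.0136 ± 0.0304). *Aldh1a1*, *Rara* and *Aldh1a2* did not differ from each other beyond their spread, nor did *Rbp4* from any of these or from *Rarb*, nor *Stra6* from *Crabp2*. The place of *Rbp4* above *Rarb* rests on MLPKO mouse 2: without it *Rbp4* was at 1.23 ± 0.453 CPM per kb (SD, n = 4), below *Rarb* at 2.15 ± 0.58, and its median over all 5 mice was 1.5 CPM per kb. In MLPKO-cRADKO, *Rbp4* stood at 0.207 ± 0.148 CPM per kb, below *Rarb* at 2.24 ± 0.28 and above *Stra6* at 0.0532 ± 0.0316. *Rbp7* (41.8 ± 7.32) and *Rxra* (15.2 ± 0.247) again led. With the length of all annotated exons the values were lower, for *Aldh1a1* 2.93 in place of 5.08 CPM per kb in MLPKO, and *Rara* and *Aldh1a2* changed places.

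The wider pathway was taken from 9 lists by role, which hold 68 genes besides the 9. Of these, 40 entered the fit. None was called by edgeR or by limma-voom, and 8 of 40 had an unadjusted p under 0.05 beside 21.6% of all genes tested. DESeq2 called 3, among them *Ncor1* and *Tgm2*, beside 10.0% of all genes to which it gave an adjusted p. Their median log2 fold change was 0.03, beside 0.01 over all genes tested. The genotypes did not overlap for 3 of the 40, among them *Fabp5* and *Ncor1*, beside 6.62% of all genes.

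**Figure D2:**
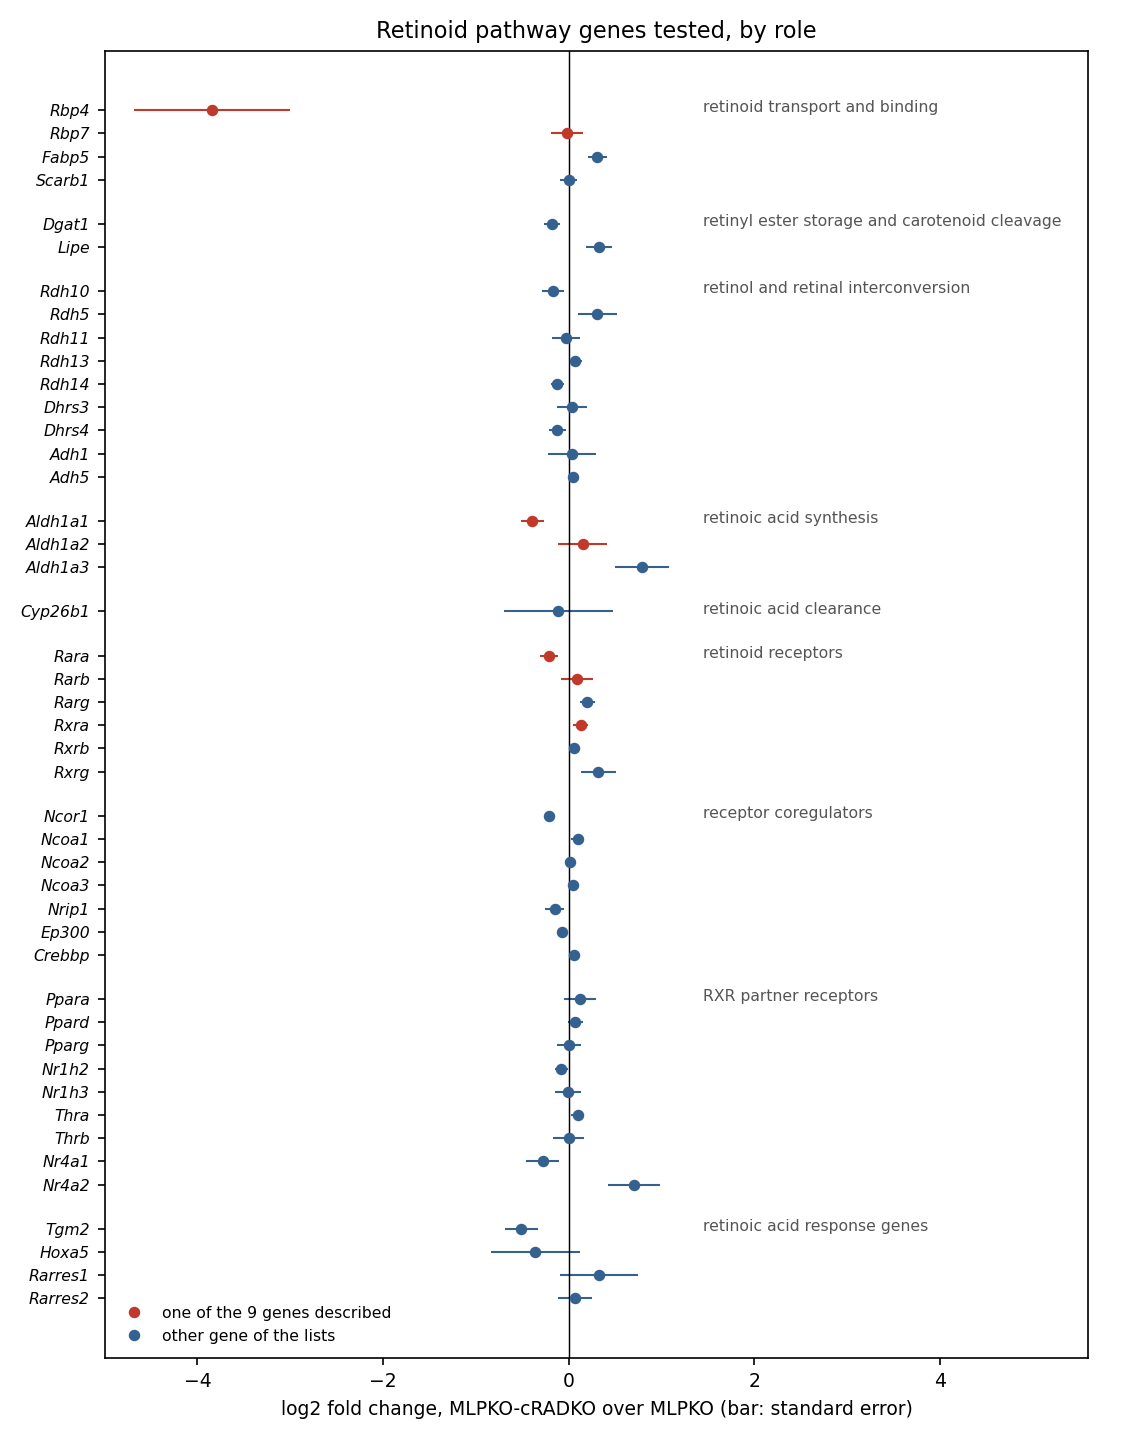
log2 fold change of MLPKO-cRADKO over MLPKO (horizontal axis) with its standard error for the retinoid pathway genes tested and reported here, each shown once under the first role that lists it, with the 7 genes described singly in red and the others in blue. *Rbp4* lies at -3.84, and the others lie between -0.51 (*Tgm2*) and 0.79 (*Aldh1a3*).

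Among transport and binding genes, *Ttr*, encoding transthyretin, had 0 to 23 counts a mouse and did not enter the fit. *Fabp5*, a fatty acid-binding protein that can carry retinoic acid, was at 14.5 to 19 CPM in MLPKO and at 19.1 to 24.8 CPM in MLPKO-cRADKO, with a log2 fold change of 0.31 ± 0.10 (SE, edgeR adjusted p = 0.108). In the storage list the gene with the highest level was *Lipe*, the hormone-sensitive lipase, at 23.8 ± 2.72 and 29.9 ± 6.61 CPM (edgeR adjusted p = 0.213).

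Of the 17 genes that interconvert retinol and retinal, 9 entered the fit, with log2 fold changes between -0.17 and 0.31. The highest level was that of *Dhrs3*, which reduces retinal to retinol, at 58.9 ± 11.5 CPM in MLPKO and 60.8 ± 11.8 CPM in MLPKO-cRADKO (SD, n = 5 each; edgeR adjusted p = 0.91). *Dhrs9*, a retinol dehydrogenase named after its values were seen, did not enter the fit. It had 38, 153, 8, 4 and 16 counts in MLPKO mice 1 to 5 and 6, 4, 3, 2 and 4 counts in MLPKO-cRADKO mice 1 to 5, so that, like *Rbp4*, it was highest in MLPKO mouse 2. In the fit without a filter on low counts its log2 fold change was -3.67 (edgeR adjusted p = 0.0794).

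The third enzyme of retinoic acid synthesis, *Aldh1a3*, was at 1.21 ± 0.139 CPM in MLPKO and at 2.10 ± 1.02 CPM in MLPKO-cRADKO (SD, n = 5 each), a log2 fold change of 0.79 ± 0.29 (SE, edgeR adjusted p = 0.137). MLPKO-cRADKO mouse 3 was its highest at 3.82 CPM. For clearance, *Cyp26b1* spanned 2.03 to 14.3 CPM among MLPKO mice and 3.79 to 21.5 CPM among MLPKO-cRADKO mice. Its log2 fold change was -0.11 ± 0.59 (SE, edgeR adjusted p = 0.94), and the spread between mice of a genotype exceeded the difference between genotypes. *Cyp26a1* had at most 4 counts in any mouse. *Cyp26c1*, another of the CYP26 enzymes and also named after its values were seen, had 0 counts in all 5 MLPKO mice and 4, 0, 6, 3 and 5 counts in MLPKO-cRADKO mice 1 to 5, too few for the fit.

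The 3 receptors outside the 9 genes all entered the fit. *Rarg* was at 18 ± 1.33 and 20.7 ± 1.91 CPM (SD, n = 5 each; edgeR adjusted p = 0.166). *Rxrg*, the RXR of striated muscle, was at 23.1 CPM in MLPKO mouse 2 and at 39.5 to 60.8 CPM in the other 9 mice, with a log2 fold change of 0.32 ± 0.19 (SE, edgeR adjusted p = 0.351). MLPKO mouse 2 thus had the lowest *Rxra* and *Rxrg* and the highest *Rbp4*, *Rbp7*, *Aldh1a1* and *Rara* of the MLPKO mice. Of the 47 retinoid genes tested it was the highest MLPKO mouse for 11 and the lowest for 15.

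All 8 receptor coregulators entered the fit. *Ncor1* encodes a corepressor that binds RAR without ligand. *Ncor1* was at 159, 156, 158, 161 and 177 CPM in MLPKO and at 147, 151, 124, 140 and 142 CPM in MLPKO-cRADKO, with a log2 fold change of -0.21 ± 0.06 (SE, edgeR adjusted p = 0.0928, DESeq2 adjusted p = 0.0349). *Ncor1* was lower in all MLPKO-cRADKO mice and missed the threshold of edgeR.

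Of the 11 nuclear receptors that pair with RXR or are linked to it, 9 entered the fit. *Thra*, a thyroid hormone receptor, had the highest level, 80.2 ± 4.26 CPM in MLPKO and 86.1 ± 6.89 CPM in MLPKO-cRADKO (SD, n = 5 each; edgeR adjusted p = 0.396). Among 19 known retinoic acid response genes, 9 entered the fit, several of them members of other lists. *Tgm2*, encoding a transglutaminase, was the highest at 196, 366, 198, 174 and 203 CPM in MLPKO and 164, 153, 179, 150 and 149 CPM in MLPKO-cRADKO. Its log2 fold change was -0.51 ± 0.18 (SE, edgeR adjusted p = 0.119, DESeq2 adjusted p = 0.0365), and the groups overlapped through MLPKO mouse 4 and MLPKO-cRADKO mouse 3. Without MLPKO mouse 2 and MLPKO-cRADKO mouse 3, the mice that stood apart, edgeR called *Tgm2*.

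Adipose tissue secretes RBP4, and adipocyte markers were therefore set beside *Rbp4*. The summed level of 9 adipocyte markers was 0.38 to 1.94 CPM in MLPKO and 0.392 to 132 CPM in MLPKO-cRADKO, where mouse 3 held the highest value and the next mouse 1.67 CPM. In MLPKO-cRADKO mouse 3 the adipokine *Adipoq* was at 5.90 CPM and the lipid droplet gene *Plin1* at 9.01 CPM, and in every other mouse both were at most 0.134 CPM. *Rbp4* was at 0.164 CPM in that mouse, and in MLPKO mouse 2, which had the highest *Rbp4*, the marker sum was 0.38 CPM, the lowest of all 10. The difference in *Rbp4* without both of these mice was -2.54 ± 0.54 (log2, SE).

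**Figure D3:**
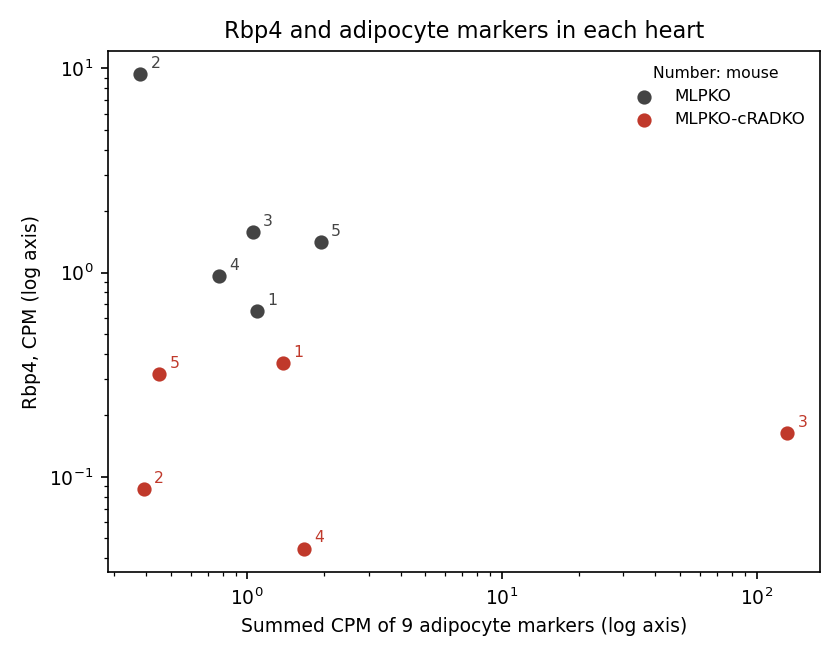
*Rbp4* in CPM against the summed CPM of 9 adipocyte markers in each mouse (both axes log), with MLPKO in grey, MLPKO-cRADKO in red and numbers naming the mice. MLPKO-cRADKO mouse 3 lies alone at 132 CPM of markers with *Rbp4* at 0.164 CPM, and MLPKO mouse 2 has the highest *Rbp4* with the lowest marker sum.

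The liver is the main source of circulating RBP4, and of 8 hepatocyte markers only *Ahsg* entered the fit, while *Alb* had counts in 1 mouse. Their sum was 0.613 to 2.63 CPM in MLPKO and 1.11 to 2.93 CPM in MLPKO-cRADKO. Over all 9 marker lists, 57 of 80 genes entered the fit and 2 were called, beside 2.74% of all genes tested, *Dpt* of fibroblasts, which rose (log2 fold change 0.93 ± 0.12, SE, edgeR adjusted p = 0.00665), and *Tnnt2* of cardiomyocytes, which fell (-0.57 ± 0.09, SE, edgeR adjusted p = 0.0185) and was not called without MLPKO-cRADKO mouse 5. The counts by list below stand beside 21.6% of all genes at an unadjusted p under 0.05 and 10.0% called by DESeq2. Mesothelial and epicardial markers summed to 37.4 to 70.5 CPM in MLPKO and 31.6 to 55.8 CPM in MLPKO-cRADKO, with 7 of 9 log2 fold changes below 0, 3 at an unadjusted p under 0.05, none called by edgeR and *Upk1b* called by DESeq2. Macrophage markers summed to 144 to 206 CPM in MLPKO and 177 to 321 CPM in MLPKO-cRADKO, and all 9 lay above 0 with an unadjusted p under 0.05, though none was called by edgeR and 5 by DESeq2. *Wt1* of the epicardium, *Pecam1* of endothelium and *Adgre1* of macrophages were counted in every mouse. Endothelial markers summed to 981 to 1129 CPM in MLPKO and 1125 to 1283 CPM in MLPKO-cRADKO, with 1 of 9 log2 fold changes below 0, 6 at an unadjusted p under 0.05, none called by edgeR and *Kdr* and *Tie1* called by DESeq2. Cardiomyocyte markers summed to 85042 to 97228 CPM in MLPKO and 69500 to 85661 CPM in MLPKO-cRADKO, with 7 of 9 log2 fold changes below 0, 4 at an unadjusted p under 0.05, and *Tnnt2* and *Myh6* called by DESeq2. Fibroblast markers summed to 1453 to 2102 CPM in MLPKO and 1218 to 2218 CPM in MLPKO-cRADKO, with 5 of 9 below 0 and 1, *Dpt*, at an unadjusted p under 0.05 and called by DESeq2. Atrial markers summed to 147 to 2480 CPM in MLPKO and 193 to 480 CPM in MLPKO-cRADKO. Most of that sum was *Nppa*, at 106 to 2440 CPM and 146 to 429 CPM, which the study counts among foetal cardiac genes. The sum therefore does not measure atrial tissue. Of the 7 tested, 2 had log2 fold changes below 0 and 2 an unadjusted p under 0.05. None was called by edgeR, and *Nr2f1* was called by DESeq2. *Sln* was at most 0.359 CPM, and skeletal muscle markers stayed at or under 2.99 CPM. What part these cell types have in the retinoid values was not tested.

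On either side of *Rbp4* among the genes tested lie *Cep55*, 41.9 kb away, with a log2 fold change of 0.46 ± 0.47 (SE, edgeR adjusted p = 0.62), and *Fra10ac1*, 63.0 kb away, with 0.14 ± 0.12 (SE, edgeR adjusted p = 0.554). Of the 20 other genes tested whose starts lie within 1.5 Mb of that of *Rbp4*, none was called by edgeR or limma-voom, and their log2 fold changes ran from -0.57 to 0.81. Of these 20, 4 had an unadjusted p under 0.05, beside 21.6% of all genes, and 2 were called by DESeq2 (*Slc35g1* and *Ide*, named after their values were seen), beside 10.0%. The neighbours of *Aldh1a1* tested were *Anxa1* (0.20 ± 0.16, SE, edgeR adjusted p = 0.495) and *Zfand5* (0.04 ± 0.05, SE, edgeR adjusted p = 0.688). Over chromosome 19 as a whole, 15 of 473 genes tested (3.17%) were called, beside 2.74% of all genes. Where the Cre transgene lies in the genome was not examined. These values therefore do not show whether *Rbp4* or *Aldh1a1* is linked to it.

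**Figure D4:**
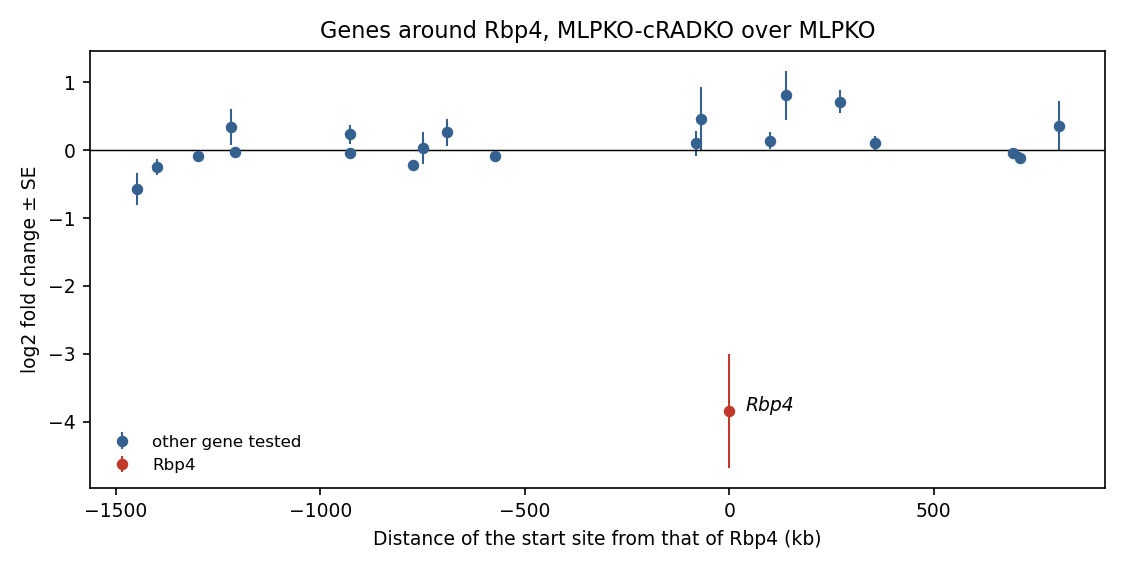
log2 fold change of MLPKO-cRADKO over MLPKO with its standard error (vertical axis) against the distance of each gene's start from that of *Rbp4* in kb, for *Rbp4* (red) and the 20 other genes tested within 1.5 Mb (blue). *Rbp4* lies at -3.84 and the others between -0.57 and 0.81.

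The genes whose log2 CPM followed *Rbp4* most closely over the 10 mice were *Fam180a* (Pearson r 0.97), *Dct* (0.969), *Tmbim1* (0.961), *Kcnj14* (0.957) and *Abcg2* (0.956). All of these had lower means in MLPKO-cRADKO, from 24.2 to 9.02 CPM for *Dct* and from 11.7 to 2.47 CPM for *Kcnj14*, as the measure itself favours. After the mean of each genotype was taken off, the closest included *Fam180a* (0.964), *Mmp2* (0.94), *Capn2* (0.935) and *Dchs1* (0.934), with 1 more among the first 5 not reported here. Without the 2 mice farthest from the median of *Rbp4*, MLPKO mouse 2 and MLPKO-cRADKO mouse 4, the r of *Fam180a* was 0.914 before and 0.924 after the genotype means were taken off. These correlations are over 10 hearts that share their libraries and were picked as the highest among the genes tested, so they carry no test. *Rbp4* had few counts, and by Spearman's rho 2 of the first 5 genes and 3 of the second 5 were the same.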

How the data were processed

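Ventricular RNA of 10 mice was sequenced, and the table holds the raw counts per gene that the authors deposited. FastQC, STAR, featureCounts and the build GRCm39 are named in the submitters' processing notes. Versions and the settings for strand, read pairs and multimapping reads are not given in the sources used here. Of 60676 rows, 3491 held no value. Genes were named, placed and measured in length with GENCODE M39. The 9 genes and all lists were chosen with earlier results of these data known.

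Following the study's methods, a gene had to exceed 10 counts in 6 or more mice, and Gm and Rik genes were left out. The main test was the quasi-likelihood test of edgeR 4.0.16 (TMM, R 4.3.3) with Benjamini-Hochberg adjustment and a threshold of 0.05. DESeq2 1.42.0 (the study's tool), limma-voom (limma 3.58.1), other scalings and filters, a replicate block and leaving out mice were alternatives. CPM used the TMM library sizes of the genes kept, and log2 CPM a prior count of 2. Fits were also run on simulated counts drawn independently for each mouse, with no mouse made to stand apart. That check therefore does not cover a mouse such as MLPKO mouse 2. The labels call the samples separate mice, so the tests set each genotype difference against an estimate of the spread between these mice. Named were the 9 genes, *Rrad*, *Csrp3*, each called gene and highest-level gene of the retinoid lists, the 5 genes most like *Rbp4* with and without genotype means, the defining markers and the nearest tested neighbours of *Rbp4* and *Aldh1a1*. Protein sequences were not used here, and some genes of the lists are not reported here. The SD and SE values include the spread between mice, while the 3-count floor covers counting error only.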

Additional observations from a re-analysis of the deposited data

Results flagged for a closer look

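In 52 groups of 5 mice (17 genes and 9 marker sums in each genotype), 8 held a mouse whose gap to the nearest other exceeded 0.71 of the group's range. That is Dixon's 95% critical value, which about 1 of 20 groups of independent, normally distributed values pass by chance. These groups share mice and some hold few counts, so that rate is only a rough guide. MLPKO mouse 2 was the highest for *Rbp4* (9.32 CPM, next 1.58), for *Tgm2* (366 CPM, next 203), for the summed fibroblast markers (2102 CPM) and for *Crabp2* (0.0634 CPM, which is 2 counts). The other MLPKO mice had 0 counts of *Crabp2*, so its gap was the whole range of necessity. MLPKO mouse 5 was the highest for *Ncor1* (177 CPM, next 161) and for the summed cardiomyocyte markers (97228 CPM). MLPKO-cRADKO mouse 1 was the highest for *Cyp26b1* (21.5 CPM, next 6.11). MLPKO-cRADKO mouse 3 was the highest for the summed adipocyte markers (132 CPM, next 1.67).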

How the results depend on the processing

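The number of genes called, 369, was 362 with RLE and 380 with upper quartile scaling, 301 without a filter on low counts, 347 with filterByExpr, 346 with Gm and Rik genes and 340 with limma-voom, and 1298 with DESeq2. Leaving out mice in turn gave 47 to 826: 107, 826 and 47 without MLPKO mice 1, 4 and 5, and 142, 105, 100 and 50 without MLPKO-cRADKO mice 2, 3, 4 and 5. Without MLPKO mouse 2 and MLPKO-cRADKO mouse 3, a choice made after seeing the data, it was 159. Of the 40 other retinoid genes tested, 0 were called in each fit that left out 1 mouse, 3 with DESeq2 and 1 (*Tgm2*) without both of those mice. Of the markers, 2 were called, 12 with DESeq2 and 1 to 8 when a mouse was left out (8 without MLPKO mouse 4, 1 without MLPKO-cRADKO mouse 5). The genes most like *Rbp4* shared 2 of 5, and 3 of 5 with genotype means removed, between Pearson and Spearman. The cause was not tested. The mouse numbers of the genotypes showed no clear pairing: the correlations of their deviations were 0.0252, 0.066, 0.0972, 0.152 and -0.0442, and 4 of 10 libraries correlated best with their own number. No chance level was worked out for these values, so whether the numbers pair the samples stays undecided. With the number as a replicate block 281 genes were called and *Rbp4* was not. Of 133 log2 fold changes of the 7 retinoid genes under the alternatives, 130 moved by less than the standard error of the main value. The sign for *Rbp4* could not change when mice were left out, because its genotypes did not overlap. Low counts limit *Rbp4*, *Stra6* and *Crabp2*.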
